A study of Homo sapiens with 4 samples.

Results

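T84 cells are an established human colorectal carcinoma line that forms a polarised epithelial layer, with an apical and a basolateral surface, when it is grown on a permeable filter. The results here concern 2 of the 4 arrays of the series: cells transfected with a mix of 4 microRNAs (miR-210 and miR-33a, with miR-338-3p and miR-451), collected on day 5, and cells transfected with a negative control, a short RNA unlike any human miRNA, collected on the same day. The pair was chosen by treatment and day alone, not by any measured value. The other arrays held cells that received miR-338-3p with miR-451 only, harvested on day 5, and cells that received the control RNA, harvested on day 7. All 4 groups shared the line, the filter wells of 24 mm with 0.4 µm pores, the seeding at 500000 cells per well, 15 pmol of oligonucleotide and the renewal of medium every other day. Each group had 1 array, so no test was possible and no p-value is given. T84 is 1 tumour line, and no array of untransfected cells or of the members of the mix singly was analysed here.

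A miRNA is a short RNA that is loaded into an Argonaute protein and pairs, mainly through its seed (bases 2 to 8), with sites in the untranslated ends of messenger RNAs, which then tend to be degraded or less translated. miR-210 is known to be induced by hypoxia through the hypoxia-inducible factor HIF. miR-33a is encoded in an intron of SREBF2, a regulator of cholesterol synthesis, and is known to lower the cholesterol exporter ABCA1. miR-338-3p and miR-451 have been described as lowered in several carcinomas, and miR-451 is abundant in red blood cell precursors.

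The mature sequences are shown because they are the treatment itself. Of the 4 names, 3 were matched in RefSeq (GRCh38.p14), and the seed of each is in capitals.
hsa-miR-210-3p (chr11:568112-568133, minus strand): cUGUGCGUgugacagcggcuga
hsa-miR-338-3p (chr17:81125887-81125908, minus strand): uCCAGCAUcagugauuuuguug
hsa-miR-33a-5p (chr22:41900949-41900969, plus strand): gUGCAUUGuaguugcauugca
The 3 seeds are different, so no pair among these miRNAs shares a seed family. The labels do not give an arm for miR-210 or miR-33a, and the arm shown is the one usually studied.

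The arrays measure messenger RNA as fluorescence on Affymetrix U133 Plus 2.0 probe sets, groups of short probes against a stretch of a transcript, and many genes have several. Each array was multiplied to a common trimmed mean of 500, 32 was added, and differences are log2 of the 4-miRNA array minus log2 of the day 5 control. A gene whose expressed probe sets number 2 or more, all with a difference of at least 1 (2-fold) to the same side, is called agreeing here. Of 12264 expressed genes, 5896 had 2 or more expressed probe sets. As deposited, the trimmed mean signal was 150 with 4 miRNAs, 147 with 2 miRNAs, 74.3 with control RNA on day 7 and 76.6 with control RNA on day 5, so brightness goes with the miRNA treatment. The highest signal lay between 17832 and 18749 on every array, and the scaling factors were 3.33 on the 4-miRNA array and 6.53 on the day 5 control. By that arithmetic a probe set at the top of the range on both arrays is lower on the 4-miRNA array after scaling. All 12 colorectal epithelium markers measured were above the array median on both arrays. Their summed level was 201523, 189384, 257536 and 189605 in the same order of arrays. Summed fibroblast markers lay between 698 and 1210, leukocyte markers between 1031 and 1325, and endothelium markers between 519 and 757. PTPRC, which marks leukocytes, and CDH5 and VWF, which mark endothelium, were below the median on both arrays. Other members of these lists were above it. On the 4-miRNA array these were 3 of 12 fibroblast, 5 of 10 leukocyte and 3 of 10 endothelium markers. On the day 5 control they were 3, 3 and 2 in the same order of lists.

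Probe sets of the same gene often disagreed. Among the 3266 genes with exactly 2 expressed probe sets, both lay on the same side of 0 in 60.7%. The SD of a difference specific to a probe set was 0.63, against an SD of 0.38 shared by the pair. For the 1046 pairs in which both had a mean log2 signal of at least 9, 65.6% were on the same side, and the SDs were 0.57 and 0.45. By the brightest probe set of each gene, 985 genes were at least 2-fold higher (8.03% of 12264) and 822 at least 2-fold lower (6.70%). Where such a gene had several probe sets, the others seldom passed the same limit: 13.1% of 534 higher genes and 13.8% of 240 lower genes agreed. The part of a difference specific to a probe set was therefore larger than the part a gene's probe sets shared. How much of this specific part is error was not tested, and it covers neither cultures nor transfections.

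**Figure D1:**
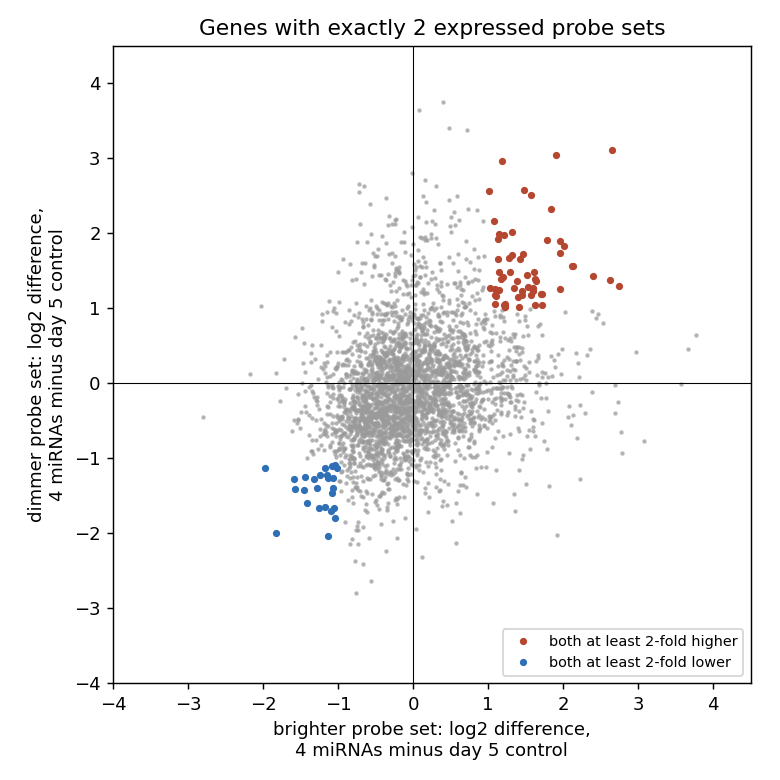
Log2 difference (4 miRNAs minus day 5 control, signal + 32) of the dimmer probe set (vertical axis) against the brighter one (horizontal axis) for the 3266 genes with exactly 2 expressed probe sets. Red points are the 59 genes with both at least 2-fold higher and blue points the 25 with both at least 2-fold lower, and the broad cloud around 0 shows how often the pair disagrees.

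By the agreeing rule, 70 genes were higher (1.19% of 5896) and 33 lower (0.560%), so 68.0% of the 103 were higher. This split moved with the scaling: it was 91 higher and 19 lower (82.7% higher) after centring on a running median of signal level, and 141 higher and 8 lower (94.6%) when arrays were set to a common median. With no filter on low values it turned, to 65 higher and 96 lower (40.4% higher). There 47 of the 70 higher and 26 of the 33 lower genes passed again. The median of all genes was −0.15 under the trimmed mean, −0.04 under the running median and 0.12 under the common median. Of the 70 higher genes, 59 had exactly 2 probe sets and 11 had 3 or more. Of the 33 lower genes, 25 had exactly 2 and 8 had 3 or more. Calls rest on measured values, and 23 of the 154 probe sets of higher genes were below the array median on the day 5 control, as were 10 of the 76 of lower genes on the 4-miRNA array. The members nearest the limit were TRIQK and RBIS, with least differences of 1.0 and 1.01, and NOLC1 and CELA3A, with −1.02 and −1.01. SMAD4 (0.99) and BLZF1 (1.0 after rounding) missed it just below, as did RGMB and PSME3 (−1.0 after rounding) on the other side. Under all 3 other scalings tried, 66 of the 70 higher genes and 8 of the 33 lower genes passed again. The 8 were MAP3K6, PRPS1, PSMD1, CPS1, SRA1, MST1, MRTO4 and UBQLN4.

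**Figure D2:**
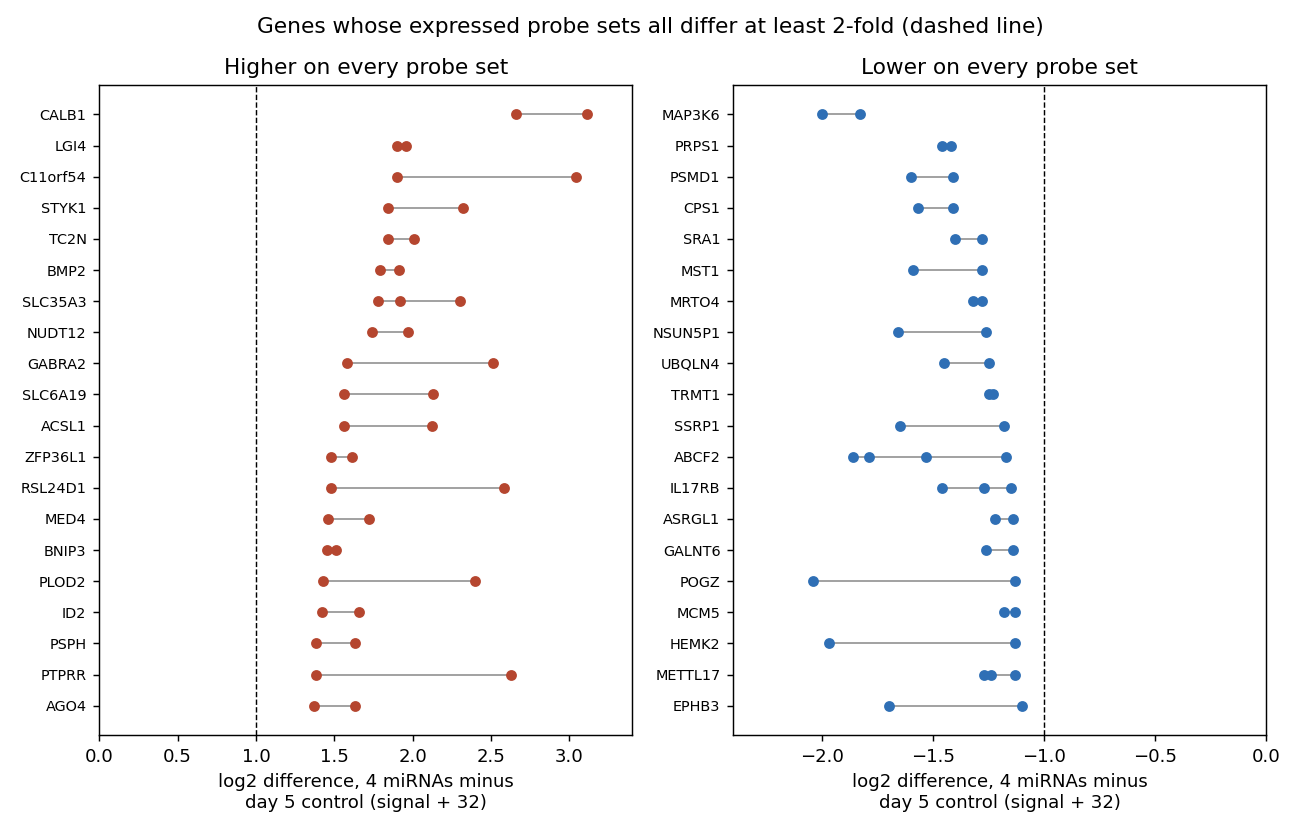
Log2 difference (4 miRNAs minus day 5 control, signal + 32) of every expressed probe set, as points joined by a line, for the 20 agreeing genes in each direction with the largest least-different probe set. The dashed line marks 2-fold. Points are measured values, also for dim probe sets. CALB1 leads the higher genes with 2.66 and 3.11. The order of the lower genes begins with MAP3K6, whose probe sets are dim on the 4-miRNA array, followed by PRPS1 with −1.42 and −1.46.

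The leading higher gene was CALB1, which encodes calbindin, a calcium-binding protein of the cytosol. Its probe sets read 1488 and 1904 with 4 miRNAs, 1454 and 1622 with 2 miRNAs, 531 and 304 with control RNA on day 7 and 209 and 192 with control RNA on day 5, differences of 2.66 and 3.11. Both miRNA arrays were above both controls on each probe set. BMP2, a secreted ligand of bone morphogenetic protein receptors, read 2563 and 1217 with 4 miRNAs, 2254 and 976 with 2 miRNAs, 1988 and 1370 with control RNA on day 7 and 718 and 300 with control RNA on day 5 (1.79 and 1.91). Here the day 5 control alone was low, and the day 7 control lay with the miRNA arrays. ID2, an inhibitor of basic helix-loop-helix factors that BMP signals induce, differed from that pattern. Its probe sets read 5389 and 2638 with 4 miRNAs, 5133 and 2301 with 2 miRNAs, 2115 and 1250 with control RNA on day 7 and 1989 and 815 with control RNA on day 5 (1.42 and 1.66), so it was high on the miRNA arrays only among these 4.

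Several higher genes act in transport and metabolism. SLC35A3, which carries UDP-N-acetylglucosamine into the Golgi, was higher on all 3 probe sets. They read 7869, 3456 and 4593 on the 4-miRNA array and 1578, 986 and 1192 on the day 5 control (2.30, 1.78 and 1.92). PSPH, the phosphatase of the last step of serine synthesis, read 347 and 2094 with 4 miRNAs, 334 and 2038 with 2 miRNAs, 64 and 470 with control RNA on day 7 and 113 and 657 with control RNA on day 5. The differences were 1.38 and 1.63, and the day 7 control was the lowest array on both probe sets. ACSL1, which activates long-chain fatty acids, was higher by 1.56 and 2.12, with 1327 and 3289 on the 4-miRNA array and 429 and 731 on the day 5 control. INSIG1, the endoplasmic reticulum protein that restrains cholesterol synthesis, was higher on 3 probe sets, by 1.21 to 1.65. SLC6A19, the apical neutral amino acid transporter, was dim on the day 5 control and at least 2.74-fold and 1.64-fold higher. GABRA2, a subunit of the receptor for the transmitter GABA, was dim there as well and at least 3.06-fold and 2.55-fold higher.

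Regulators of RNA and transcription were also among the 20 leading higher genes. MED4, a subunit of Mediator, the complex between transcription factors and RNA polymerase II, read 2074 and 835 with 4 miRNAs, 2264 and 938 with 2 miRNAs, 708 and 256 with control RNA on day 7 and 731 and 230 with control RNA on day 5. The differences were 1.46 and 1.72, and the controls were close to each other while both miRNA arrays were high. The 27 expressed Mediator genes had a median of −0.19, which became 0.09 under the common median, and MED27 was agreeing lower (−1.05 and −1.79). ZFP36L1, which binds AU-rich elements and speeds messenger RNA decay, was at 1.61. On its other probe set, dim on the day 5 control, it was at least 2.22-fold higher. AGO4, 1 of the Argonaute proteins that carry miRNAs, read 992 and 148 with 4 miRNAs, 1071 and 200 with 2 miRNAs, 381 and 208 with control RNA on day 7 and 298 and 37.6 with control RNA on day 5. Its dimmer probe set was at least 1.49-fold higher, and the brighter, at a difference of 1.63, was also above the day 7 control on both miRNA arrays. XPO5, the exporter of miRNA precursors from the nucleus, was agreeing lower on 3 probe sets, at −1.03, −1.21 and −1.40. The remaining RNA silencing genes did not agree past 2-fold, and the median of the 18 expressed was −0.38.

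Other leading higher genes were C11orf54 (1.90 and 3.04), the kinase-like STYK1 (1.84 and 2.32), TC2N (1.84 and 2.01), the NADH-cleaving enzyme NUDT12 (1.97, with its other probe set dim on the day 5 control and at least 1.23-fold higher), RSL24D1 (1.48 and 2.58) and the tyrosine phosphatase PTPRR (1.38 and 2.63). LGI4, a secreted protein known from myelination, was at least 2.70-fold and 1.39-fold above the day 5 control. It read 268 and 138 on the 4-miRNA array against 513 and 154 on the day 7 control, so it was not higher than the later control.

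Targets of HIF formed the list with the highest median. HIF is a transcription factor that is stable at low oxygen and is marked for destruction by prolyl hydroxylases, of which EGLN3 is itself a HIF target. By the brightest probe set, 18 of 23 expressed HIF targets were at least 2-fold higher, where the share of all genes was 8.03%, and none was 2-fold lower. The list median was 1.33 against −0.15 for all genes, and 1.30 to 1.61 under the other scalings. On every probe set, 8 of 13 members with several were above 0, where the share of all such genes was 19.3%, and none was wholly below. BNIP3, BNIP3L, EGLN3 and PFKFB4 were agreeing, and PLOD2, a lysyl hydroxylase of collagen that HIF induces but that was not listed, was agreeing too (1.43 and 2.4).

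BNIP3, a mitochondrial protein that promotes mitophagy, read 7610 and 19295 with 4 miRNAs, 6901 and 17487 with 2 miRNAs, 8094 and 17134 with control RNA on day 7 and 2771 and 6740 with control RNA on day 5. The differences were 1.45 and 1.51. Its relative BNIP3L read 5677 and 4525 with 4 miRNAs, 5293 and 4596 with 2 miRNAs, 4492 and 3931 with control RNA on day 7 and 1889 and 1989 with control RNA on day 5 (1.57 and 1.17). For both genes the day 5 control was the low array and the other 3 lay together. EGLN3 read 1005 and 2011, 908 and 1414, 847 and 1381, and 390 and 273 in the same order of arrays, differences of 1.30 and 2.74. PFKFB4, which makes the activator of the glycolytic enzyme phosphofructokinase, read 1448 with 4 miRNAs, 867 with 2 miRNAs, 1470 with control RNA on day 7 and 580 with control RNA on day 5 by its brighter probe set (1.27). Against the day 7 control the median of the list was 0.17, and the day 7 control itself had a median of 1.02 over the day 5 control. The height of HIF targets is therefore a difference from the day 5 control that the day 7 control shows too, and whether it came from the miRNAs, the culture or the array was not tested.

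The core enzymes of glycolysis, some of which are HIF targets in other cells, had a median of 0.05 over 16 genes. Of the 9 with several probe sets, 4 were wholly above 0 and 3 wholly below. The shares of all such genes were 19.3% and 28.7%. GAPDH, an enzyme of this list, lay between −0.81 and −1.26 on its 6 probe sets, and ACTB, cytoplasmic actin, between −0.51 and −0.75 on 6. Both are near the top of the signal range, where scaled values are lower on the 4-miRNA array: the 247 probe sets whose mean log2 was at least 15 had a median of −0.67, against −0.08 at 10 to 12.

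**Figure D3:**
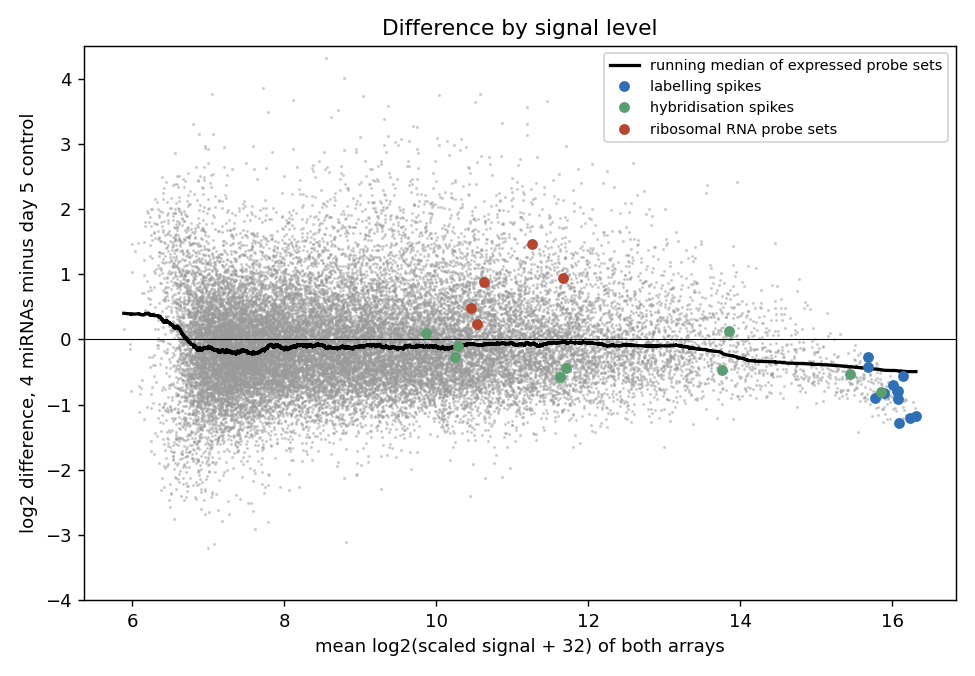
Log2 difference (4 miRNAs minus day 5 control, vertical axis) against mean log2(scaled signal + 32) of both arrays (horizontal axis) for expressed probe sets, with their running median as a black line. The running median bends below 0 at the bright end, where the 12 labelling spikes (blue, median −0.81) also lie, while the ribosomal RNA probe sets (red) are above 0.

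ACGTG is a core sequence at which HIF binds DNA, and no other form of the core was searched. That motif was searched on either strand of RefSeq promoters, from 250 bases before to 50 after the start of a gene. It was present in 7 of the 15 promoters in the table for HIF targets at least 2-fold higher (46.7%). For all expressed HIF targets, whatever their difference, it was in 8 of 19 (42.1%). The share was 26.7% in promoters of expressed genes and 21.6% in all 27305. Among agreeing higher genes it was in 16 of 57 promoters (28.1%), and among agreeing lower genes in 7 of 27 (25.9%). The promoters of BNIP3, which holds the motif, and EGLN3, which does not within this window, are printed because both genes agreed, with the motif in capitals on the strand of the gene.
BNIP3, chr10:131981874-131982173 (GRCh38.p14, minus strand): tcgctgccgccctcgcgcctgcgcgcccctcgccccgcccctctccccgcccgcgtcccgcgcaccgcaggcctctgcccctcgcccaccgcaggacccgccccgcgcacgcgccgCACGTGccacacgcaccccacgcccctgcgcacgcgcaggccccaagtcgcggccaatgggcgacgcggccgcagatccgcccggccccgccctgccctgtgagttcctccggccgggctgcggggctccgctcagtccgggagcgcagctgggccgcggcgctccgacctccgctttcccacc
EGLN3, chr14:33951025-33951324 (GRCh38.p14, minus strand): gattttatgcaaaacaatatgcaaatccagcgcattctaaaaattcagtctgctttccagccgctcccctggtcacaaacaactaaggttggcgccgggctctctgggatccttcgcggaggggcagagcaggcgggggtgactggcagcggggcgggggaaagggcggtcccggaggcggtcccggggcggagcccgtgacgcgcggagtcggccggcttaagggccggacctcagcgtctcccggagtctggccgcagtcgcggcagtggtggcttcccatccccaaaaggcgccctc
A match says only that these letters are there, and no binding was measured.

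MAP3K6, a kinase of the stress-activated cascade, led the agreeing lower genes by its least-different probe set. Both of its probe sets were below the median of the 4-miRNA array, so its place in the order is not settled. It read 27 and 26.6 with 4 miRNAs, 104 and 54 with 2 miRNAs, 128 and 140 with control RNA on day 7 and 178 and 203 with control RNA on day 5, so the difference is given as at least 2.18-fold and 2.49-fold lower. MST1, a secreted growth factor related to hepatocyte growth factor, was also dim there, at 31.6 and 52.8 against 122 and 223 on the day 5 control (at least 1.5-fold and 2.73-fold lower). PRPS1, which makes the ribose donor of nucleotide synthesis, was well measured on all arrays. Its probe sets read 827 and 1506 with 4 miRNAs, 1050 and 1956 with 2 miRNAs, 1187 and 2571 with control RNA on day 7 and 2267 and 4196 with control RNA on day 5 (−1.42 and −1.46). All arrays other than the day 5 control were low, the 4-miRNA array lowest. PSMD1, a subunit of the regulatory cap of the proteasome, read 2650 and 2156, 3100 and 2642, 4647 and 3991, and 7115 and 6584 in the same order (−1.41 and −1.60). The miRNA arrays were again the lowest and the day 5 control the highest, with the day 7 control between them.

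CPS1, the urea cycle enzyme carbamoyl phosphate synthetase, read 674 and 348 on the 4-miRNA array and 2064 and 978 on the day 5 control (−1.57 and −1.41). SSRP1, a subunit of the histone chaperone FACT, read 1990 and 2534 on the 4-miRNA array and 6296 and 5784 on the day 5 control (−1.65 and −1.18). MCM5, a subunit of the replicative helicase, read 1020 and 316 on the 4-miRNA array and 2347 and 728 on the day 5 control (−1.18 and −1.13). These 3 were lower without any dim probe set. IL17RB, a receptor chain for interleukin 25, was lower on 3 probe sets (−1.15 to −1.46), METTL17, a factor of mitochondrial ribosomes, on 3 (−1.13 to −1.27), and ABCF2 on 4. Of the 4, 2 were at −1.17 and −1.79, and the other pair was dim on the 4-miRNA array and at least 2.46-fold and 2.21-fold lower. EPHB3, an ephrin receptor of intestinal crypts, was lower by 1.10 and 1.70 on the log2 scale, with 479 and 245 on the 4-miRNA array and 1063 and 870 on the day 5 control. SRA1, which encodes a coactivator RNA of steroid receptors, was at −1.28 and −1.40. UBQLN4, a carrier of ubiquitinated proteins, was at −1.25 and −1.45. TRMT1, a transfer RNA methyltransferase, was at −1.23 and −1.25. GALNT6, which starts mucin-type glycosylation, was at −1.14 and −1.26, and the asparaginase ASRGL1 at −1.14 and −1.22. POGZ and HEMK2 each had 1 probe set dim on the 4-miRNA array. NSUN5P1 (−1.26 and −1.66) is a pseudogene copy of NSUN5, so its signal may include that of the parent gene.

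**Figure D4:**
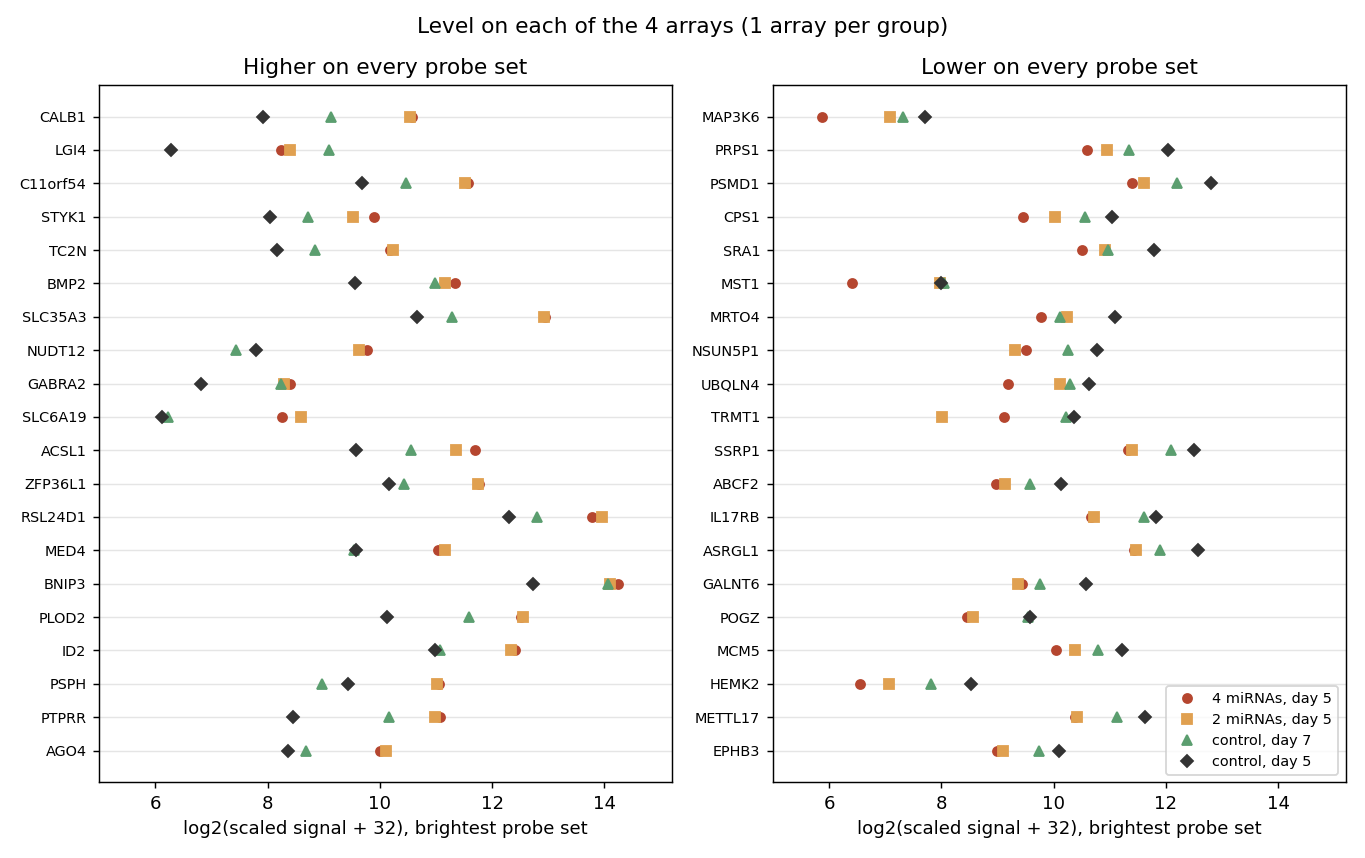
Log2(scaled signal + 32) of the brightest probe set on each of the 4 arrays for the same 20 higher and 20 lower agreeing genes (horizontal axis, 1 point per array). The 4-miRNA and 2-miRNA arrays mostly lie close together, and the day 7 control often lies between them and the day 5 control, although BNIP3 and BMP2 have it beside the miRNA arrays and MED4 and ID2 beside the day 5 control.

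The other arrays were read for the same genes, with no test, since each of these comparisons shares an array with the first. Set against the day 7 control, the 4-miRNA array was on the same side on every probe set for 55 of the 70 higher genes and past 2-fold for 17. The 17, counted by measured values, included CALB1, C11orf54, STYK1, TC2N, ZFP36L1, MED4, ID2 and PSPH. ZFP36L1 and PSPH each had a probe set below the median of the day 7 control, at 45.9 and 64 against 99.0. Of all 5896 genes with several probe sets, 29 lay past 2-fold above the day 7 control on every probe set. Another 17 lay past 2-fold below it. The share of all genes on the same side is not given for this comparison. Of the 33 lower genes 31 were on the same side and 4 past 2-fold by measured values. These were TRMT1, with no dim probe set, MST1 and POGZ, which stayed past 2-fold when the median of the 4-miRNA array stood in for their dim signals, and MAP3K6, which did not. Over the probe sets of the higher genes the median difference was 1.44 for the 4-miRNA array, 1.40 for the 2-miRNA array and 0.65 for the day 7 control, each minus the day 5 control. Over those of the lower genes it was −1.25, −1.09 and −0.51 in that order. These comparisons subtract the same control, and the genes were chosen for their distance from it, so a like sign follows from the choice and nothing is read from it. The 4-miRNA array minus the 2-miRNA array had medians of 0.08 and −0.21. The comparisons with the day 7 control and the 2-miRNA array keep the 4-miRNA array, by which the genes were also chosen. Their signs therefore lean the same way by the choice, and nothing is read from them either. A day 5 control that itself stands apart cannot be told apart from effects of treatment or time in this design.

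The agreeing genes were also compared on features the selection did not use. The median genomic length was 38717 bases for higher genes and 16909 for lower genes, against 40660 for all genes with 2 or more probe sets. The GC content of the promoter window had a median of 68.0% in 57 higher genes, 63.0% in 27 lower genes and 65.7% in 4930 genes. Probe sets marked _s_at or _x_at, which can match more than 1 transcript or gene, made up 46.1% of those of higher genes, 61.8% of those of lower genes and 44.0% in all.

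Among the gene lists, those of growth and protein supply lay low. Genes of ribosome biogenesis, which transcribe, modify and assemble ribosomal RNA in the nucleolus, were below 0 by the brightest probe set in 29 of 30, where the share of all genes was 59.0%. Of these, 10 were at least 2-fold lower, where the share of all genes was 6.70%, and the median was −0.86. On every probe set, 13 of the 17 with several were below 0 and none was above, where the share of all such genes was 28.7%. NOLC1, a nucleolar scaffold protein, was agreeing: it read 974, 695 and 3820 with 4 miRNAs, 1116, 594 and 3723 with 2 miRNAs, 1748, 1013 and 4950 with control RNA on day 7 and 2777, 1606 and 7777 with control RNA on day 5. The day 5 control was the highest and the miRNA arrays the lowest on all 3 probe sets. UTP4, a factor of the small subunit, was at −0.79 and −1.06, and POLR1C, a subunit of RNA polymerase I, at −0.97 and −0.74. The list median was −0.58 to −0.85 under the other scalings, −0.37 against the day 7 control and −0.46 in the day 7 control against the day 5 control. Ribosome assembly factors outside the list went both ways, with MRTO4 agreeing lower (−1.28 and −1.32) and RSL24D1 and NIP7 (1.14 and 1.24) agreeing higher. The control probe sets for 28S ribosomal RNA were higher on the 4-miRNA array, by a median of 1.20, while the messenger RNAs of this list were lower.

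Subunits of the proteasome, which degrades ubiquitinated proteins, were below 0 in 26 of 27 (59.0% of all genes), with a median of −0.71. At least 2-fold lower were 3 of the 27, beside 6.70% of all genes. On every probe set, 7 of 12 were below 0 and none above, where 28.7% and 19.3% of all such genes were, and PSMD1 alone was agreeing, with PSMD11 (−1.06 and −0.85) and PSMB7 (−0.75 and −1.25) next. Enzymes of nucleotide synthesis were below 0 in 21 of 23 (59.0% of all genes), with a median of −0.62. PRPS1 was agreeing, ADSL, an enzyme of purine synthesis, was at −1.04 and −0.65, and TK1, which salvages thymidine, at −0.62 and −0.56. Heat shock genes had a median of −0.66 over 14 genes, with 5 of 10 wholly below 0, where the share of all such genes was 28.7%. Splicing factors had a median of −0.48, with 12 of 21 wholly below 0, against the same share, and none wholly above, among them SNRPB (−0.87 and −0.91) and PRPF31 (−1.44 and −0.71). Nuclear pore genes were at −0.48, aminoacyl-tRNA synthetases at −0.45, and nuclear-encoded respiratory chain genes at −0.41. These medians stayed below 0 under all 3 other scalings, but they moved toward 0 under the common median, where the respiratory chain was at −0.12.

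DNA replication genes were below 0 in 28 of 33 (59.0% of all genes), and 8 were at least 2-fold lower (6.70% of all genes). Their median was −0.43, which became −0.15 under the common median and −0.19 against the day 7 control. On every probe set 8 of 17 were below 0 and 1 above, where the shares of all such genes were 28.7% and 19.3%. MCM7, of the same helicase as MCM5, was at −0.84 and −1.11, and GINS2, which joins that helicase, at −1.04 and, on a probe set dim on the 4-miRNA array, at least 1.69-fold lower. Mitosis genes had a median of −0.26, which became 0.02 under the common median, and RB and E2F genes a median of −0.04, which became 0.24. Stem cell and Wnt target genes had a median of −0.38 over 17, with 9 of 11 wholly below 0 and 1 wholly above, where the shares of all such genes were 28.7% and 19.3%. The median became −0.10 under the common median. RGMB, a coreceptor of BMP that the limit just missed, was at −2.12, −3.10 and −2.29 on 3 probe sets and at least 1.82-fold lower on the other, which was dim on the 4-miRNA array. In the same order of probe sets it read 734, 122, 247 and 58.5 on the 4-miRNA array against 3308, 1288, 1334 and 148 on the day 5 control. LGR5, the receptor that marks intestinal stem cells, read 1947 and 404 with 4 miRNAs, 2836 and 521 with 2 miRNAs, 2715 and 718 with control RNA on day 7 and 3558 and 878 with control RNA on day 5 (−0.86 and −1.06). The 4-miRNA array was the lowest of the 4 for both probe sets.

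Absorptive enterocyte genes, which mark mature intestinal surface cells, were above 0 in 15 of 19 by the brightest probe set, where the share of all genes was 41.0%. Their median was 0.55, with 6 at least 2-fold higher and 1 lower, where the shares of all genes were 8.03% and 6.70%. None was agreeing, and SLC26A2, a sulfate transporter, came nearest with 1.28, 1.19 and 0.91. It read 11556, 13006 and 8993 with 4 miRNAs, 17286, 17612 and 14851 with control RNA on day 7 and 4739, 5698 and 4768 with control RNA on day 5, so the day 7 control was the highest. The list was at −0.36 against the day 7 control. Interferon response genes had a median of 0.33 over 26, with 5 of 12 wholly above 0 and 2 wholly below, where the shares of all such genes were 19.3% and 28.7%. RIGI, a sensor of viral RNA, was at 0.55 and 0.95 and, on a probe set dim on the day 5 control, at least 1.94-fold higher. Against the day 7 control the median was −0.10. The metallothionein list holds 6 expressed metallothioneins, which bind zinc and copper, with MTF1, the factor that induces them, and SLC30A1, a zinc exporter. Its median was −0.81 over the 8 genes. Without _x_at and _s_at probe sets it was 0.30, but over fewer genes. That setting leaves out at least MT1E and MT1F, whose expressed probe sets were all _x_at. The 0.30 is therefore not a rise of the same genes. MT2A was at −1.30, MTF1 at −0.50 and SLC30A1 at 1.09 by the brightest probe set. The metallothionein copies share sequence, so their probe sets are uncertain.

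**Figure D5:**
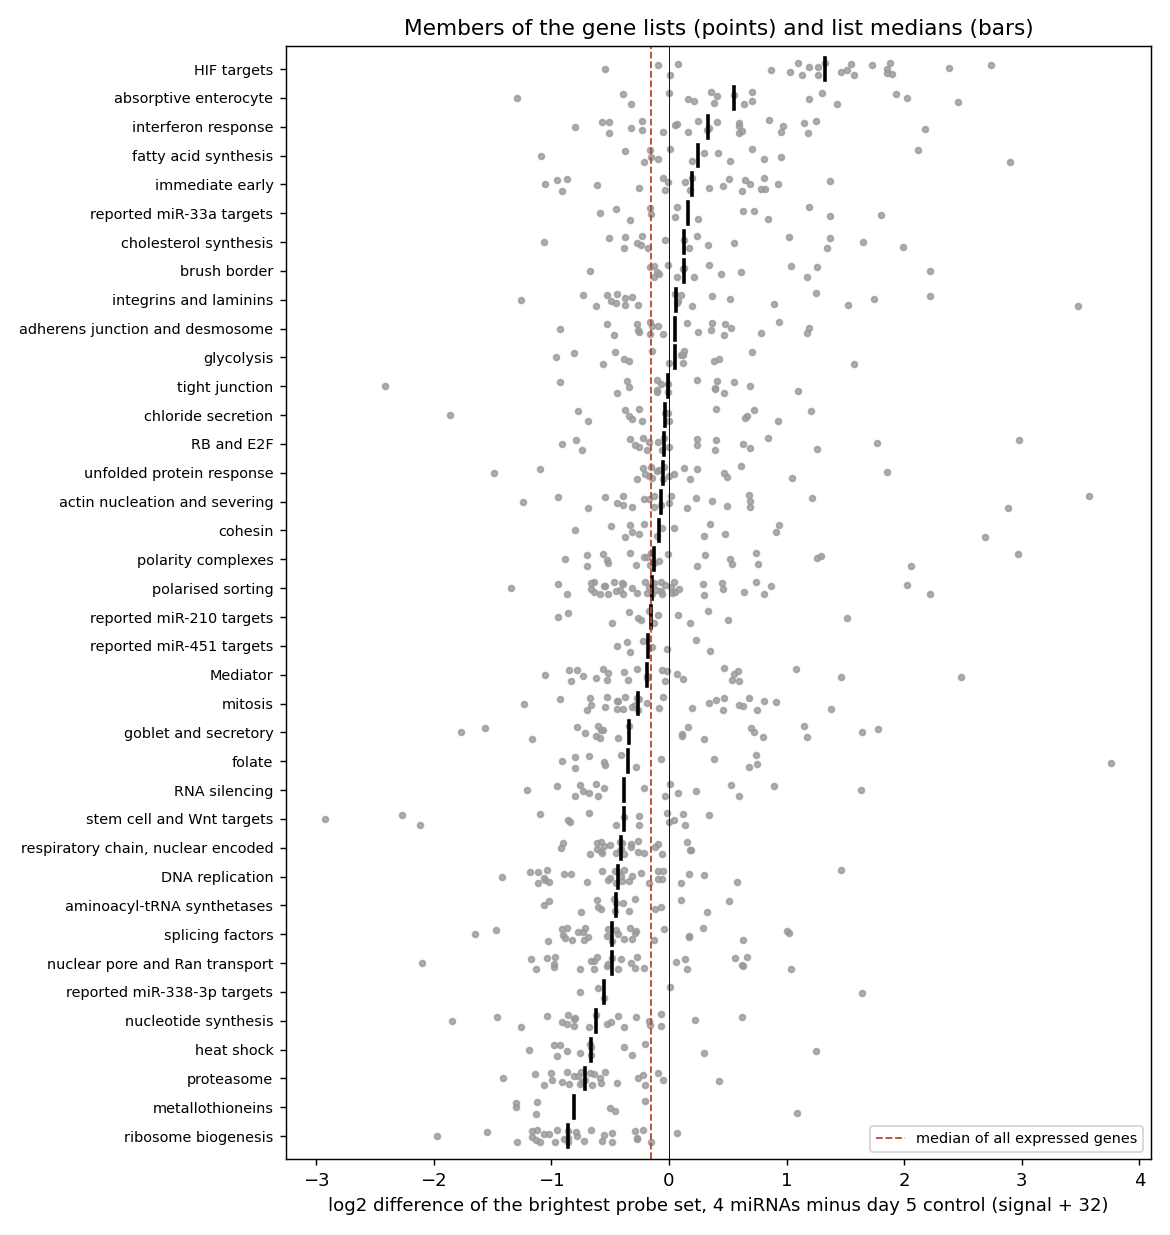
Log2 difference of the brightest probe set (4 miRNAs minus day 5 control, signal + 32) for each expressed member of the gene lists (points), with the list median as a bar and the median of all expressed genes (−0.15) as a dashed line. HIF targets have the highest median (1.33) and ribosome biogenesis the lowest (−0.86), and most lists overlap the dashed line.

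Genes of epithelial polarity, the subject of the study, had list medians near that of all genes. Tight junction genes had a median of −0.01 over 19, adherens junction and desmosome genes 0.05 over 22, polarity complexes −0.13 over 25, polarised sorting −0.14 over 45, and integrins and laminins 0.06 over 24. Under the common median all 5 medians were above 0, from 0.12 to 0.33. By the brightest probe set, 5 of 24 integrins and laminins and 4 of 25 polarity genes were at least 2-fold higher, where the share of all genes was 8.03%. ITGB8, an integrin with 1 expressed probe set, was at 3.48 and ITGA2, of the collagen receptor, at 2.22. None of these 5 lists held an agreeing gene. CDH1, the cadherin of epithelial junctions, read 22035 and 936 with 4 miRNAs, 20366 and 702 with 2 miRNAs, 22640 and 1111 with control RNA on day 7 and 18470 and 801 with control RNA on day 5 (0.25 and 0.22), within the probe-set SD of 0.63. ITGB1, the β1 integrin that anchors the basal surface, was at 0.37, 0.74 and −0.20 on 3 probe sets, which disagreed in sign, and at least 1.59-fold higher on the other, which was dim on the day 5 control. Occludin (OCLN) lay between 0.01 and 0.45 on 4 probe sets, and TJP1, a tight junction scaffold, was at 0.55 and −0.60. DSC2, a desmosomal cadherin, was at 0.67, 0.90 and 1.19 on 3 probe sets and at least 3.81-fold higher on the other, which was dim on the day 5 control. LIN7C, of a basolateral polarity complex, was at 0.52, 1.19 and 2.68, and ATP1B1, a subunit of the basolateral sodium pump, at 0.93 and 1.28. ABI1, a subunit of the WAVE complex that starts actin branches, was agreeing higher, at 1.22 and 1.98, with 4415 and 3584 on the 4-miRNA array and 1882 and 882 on the day 5 control.

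Several of the larger differences among genes of the epithelial surface rested on 1 probe set each. PARD6B, a subunit of the apical polarity complex, read 1762 with 4 miRNAs, 1573 with 2 miRNAs, 107 with control RNA on day 7 and 196 with control RNA on day 5 (2.97). FOLR1, a folate receptor, read 5584, 4846, 331 and 383 in that order (3.76). Both were high on the miRNA arrays and low on the controls. CLDN2, a pore-forming claudin, read 574, 745, 1239 and 3179 (−2.41), with the day 5 control the highest. No second expressed probe set was there to check these 3, and most genes past 2-fold by the brightest probe set that could be checked in this way did not agree.

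Genes reported as targets of the 4 miRNAs were listed from background knowledge, so the lists are partial, and a fall of protein without a fall of messenger RNA would not be seen here. The 14 expressed miR-210 targets had a median of −0.15, that of all genes, and 0.12 under the common median. EFNA3, an ephrin and a classical miR-210 target, read 119 with 4 miRNAs, 395 with 2 miRNAs, 366 with control RNA on day 7 and 259 with control RNA on day 5 (−0.94). It was lowest on the array that had received miR-210, on 1 probe set. GPD1L read 1671, 1800, 2722 and 3057 in that order (−0.86), ISCU, an iron-sulfur scaffold, 5936, 7160, 5622 and 7018 (−0.24), and SDHD, a subunit of complex II, 12605, 14935, 14323 and 15140 (−0.26). GPD1L was low on both miRNA arrays, while SDHD was lowest with the 4 miRNAs and ISCU was not. BNIP3, also reported as a target, was higher, as described above.

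Reported miR-33a targets had a median of 0.16 over 14, with 7 of 12 wholly above 0 and 2 wholly below, where the shares of all such genes were 19.3% and 28.7%. ABCA1 read 193 and 216 with 4 miRNAs, 147 and 205 with 2 miRNAs, 148 and 139 with control RNA on day 7 and 141 and 106 with control RNA on day 5 (0.38 and 0.84), so it was highest on the array that had received miR-33a. CROT, an enzyme of fatty acid oxidation, was at −0.15 and −0.61, and NPC1, a cholesterol transporter of lysosomes, at −0.45 and −0.03. ATP8B1, a lipid flippase, was at 0.08 and 1.8, and CPT1A, which admits fatty acids to mitochondria, lay between 0.05 and 0.67. Reported miR-338-3p targets had a median of −0.55 over 5, which was −0.06 by the median over a gene's probe sets and 0.30 without _x_at and _s_at probe sets, so no direction holds. The colorectal cancer gene MACC1 was wholly above 0 (1.64, 0.86 and 0.33). Reported miR-451 targets had a median of −0.18 over 8 (0.09 under the common median), with CAB39 at −0.33 and −0.31 and MIF at 0.35. None of the reported targets except BNIP3 was agreeing in either direction.

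Some genes had probe sets past 2-fold in both directions, 72 in all, and for these no direction is given. The 8 with the widest measured spans were ZC3H7B, REST, CBX3, NEDD9, ASPH, SMURF1, LARP1B and ARRB1. In all of these 8 except CBX3, a lower probe set was dim on the 4-miRNA array, so their order is not settled. CBX3, a heterochromatin protein with no dim probe set, lay between −1.13 and 2.62. A probe set of ZC3H7B read 380 on the 4-miRNA array and 21 on the day 5 control (at least 3.82-fold higher), and another 27.1 and 165 (at least 2.02-fold lower). REST, a repressor of neuronal genes, was at 1.91 on 1 probe set and at least 2.96-fold lower on the other. NEDD9, a scaffold of focal adhesions, was at 2.30 on 1 probe set and at least 2.15-fold lower on another.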

How the data were processed

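RNA of T84 cells was hybridised to 4 arrays, 1 per group. The deposited values are intensity per probe set on a linear scale, which the authors computed in MAS5 (per the submitters' processing notes), version and target level being not given in the sources used. Arrays were multiplied to a mean of 500, trimmed by 2% at each end, and log2(signal + 32) was taken, so folds of dim genes are understated. A probe set was kept if its mean log2 reached the median of all 54675 probe sets or if it reached the 75th percentile of an array. The platform annotation gave 1 symbol to 41097 probe sets (41043 matched to GRCh38.p14 by gene ID), several to 1801, which were left out, and none to 11777. A probe set whose dimmer side was under its array's median is given as a fold of "at least", while calls, counts, medians and figures use measured values. No detection call was used, and precision is limited by having 4 arrays.

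Named genes were the 20 agreeing genes with the largest least difference in each direction, up to 6 agreeing members of each of 42 lists (with fewer than 2, up to 2 members on the same side), the 8 widest disagreements, and a fixed set with the reported targets. Other names were chosen after their values were seen. The members and lists were chosen with earlier results of these data known. Alternatives were another pseudocount, filter, scaling, probe-set choice and control. The counting was tested on simulated data with less noise than these arrays and with large changes, placed only in bright genes. That checks the code and not how the rule performs on these data. Python 3.11.15, numpy 2.4.6, pandas 2.3.3 and matplotlib 3.10.9 were used.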

Additional observations from a re-analysis of the deposited data

Results flagged for a closer look

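Among control probe sets that belong to no gene comparison, those for ribosomal RNA were above the day 5 control. The 2 probe sets for 28S ribosomal RNA had a median log2 difference of 1.20 (range 0.94 to 1.46), with median scaled signals of 4267 with 4 miRNAs, 5537 with 2 miRNAs, 2364 with control RNA on day 7 and 1891 with control RNA on day 5. The 3 probe sets for 18S ribosomal RNA had a median of 0.48 (range 0.24 to 0.88). The bacterial spikes were not: the 9 hybridisation spikes had a median of −0.44 (−0.81 to 0.13), with median scaled signals of 2833 with 4 miRNAs and 3856 with control RNA on day 5, and the 12 labelling spikes a median of −0.81. As deposited, before scaling, the hybridisation spikes had a median log2 difference of 0.52. The 3′ to 5′ signal ratio of ACTB was 1.97, 2.28, 2.33 and 2.11 in the same order of arrays, and that of GAPDH 0.951, 0.962, 0.978 and 1.02. The part of RNA preparation in the differences was not tested. Of 4678 expressed probe sets with no gene symbol or several, 332 passed the 2-fold limit upwards (7.10%) and 348 downwards (7.44%), beside 8.65% and 6.21% of the 22609 probe sets with 1 symbol. They are not named here.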

How the results depend on the processing

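The count of genes higher on every probe set, 70, was 141 with arrays set to a common median, 41 without _x_at and _s_at probe sets and 29 against the day 7 control. The count lower, 33, was 96 with no filter on low values, 8 with a common median, 19 after running median centring, 11 without _x_at and _s_at probe sets and 17 against the day 7 control. By the brightest probe set, 985 higher became 1608 with no filter and 1551 with a common median, and 822 lower became 1977 with no filter, 408 with the filter at the 70th percentile, 364 with a common median and 509 against the day 7 control. Other alternatives kept these counts within 1.5 times. Of the 70, 17 passed again against the day 7 control and 23 without _x_at and _s_at probe sets. Of the 33, 4 and 9 did. Signs were compared for lists with a median of at least 0.3 in size and for genes at least 2-fold apart. Among these, against the day 7 control the sign turned for interferon response (−0.10), absorptive enterocyte (−0.36) and epithelium markers (−0.28), and for LGI4 (−0.86), PFKFB4 (−0.02) and SLC26A2 (−0.44). Goblet and secretory genes turned to 0.09 with no filter, and reported miR-338-3p targets to 0.30 without _x_at and _s_at probe sets. The metallothionein list was at 0.30 there too, but without MT1E and MT1F, so not over the same genes. Smaller medians turned against the day 7 control too, among them glycolysis (−0.36), adherens junction and desmosome (−0.16), cholesterol synthesis (−0.16) and mitosis (0.02). Of the remaining values of single genes, 1547 kept their value within the probe-set SD and 52 moved by more. Of those of lists, 389 stayed within 0.25 and 64 moved by more. The cause was not tested, except that fewer probe sets leave fewer genes to count. No paired analysis was possible because each group has 1 array. Dim probe sets limit what a fold can show.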
